A study of Mus musculus with 2 samples.

Results

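The miR-29 family of mouse comprises 4 hairpin genes, Mir29a, Mir29b-1, Mir29b-2 and Mir29c, taken here by name from 1973 annotated miRNA genes. Their reads were counted in small RNA libraries from the forebrain of B6NCrl mouse embryos at embryonic day 14.5. There were 2 libraries, numbered by the labels as biological replicates 1 and 2, and the labels put the size range below 30, with no unit. Each library is described as 1 forebrain, yet the same records give pooled sexes and a donor identifier common to both. How far the libraries are separate embryos is therefore unclear, and part of their spread may be technical. No treatment, mutation, second tissue or second age is named. The libraries therefore form 1 group, and no condition was compared.

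A miRNA gene is transcribed as part of a longer RNA, which is cut to a hairpin and then to short mature strands from its 5′ arm (5p) and 3′ arm (3p). A mature strand guides silencing complexes to messenger RNAs that pair with its seed, bases 2 to 8. The miR-29 family is known for repressing collagens and other extracellular matrix genes and the DNA methyltransferases Dnmt3a and Dnmt3b, and in mouse brain it accumulates after birth as neurons mature. It is known to restrain cell death in mature neurons by acting on BH3-only genes.

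The mature sequences are shown first, since they set both what the family can bind and what a gene count can hold. They are RefSeq sequences on GRCm38.p6, written 5′ to 3′, with the seed in capitals. All 4 genes were matched there.

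miR-29a-3p: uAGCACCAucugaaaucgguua

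miR-29c-3p: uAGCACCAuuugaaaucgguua

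miR-29b-3p: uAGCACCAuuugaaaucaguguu

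The 3p strands of the 4 genes shared 1 seed, AGCACCA, and no other gene among the 1738 RefSeq mature entries carried it at bases 2 to 8. A messenger RNA site that pairs with it reads UGGUGCU. The first 9 bases were the same in all 3 sequences. Counted from 1 at the 5′ end and with miR-29a-3p as reference, miR-29c-3p differed by C10U alone, and 21 of 22 positions matched. Against the same reference, miR-29b-3p differed by C10U, G18A, U21G and A22U over 22 compared positions, and it is 23 nt long. Mir29b-1 and Mir29b-2 encode exactly this 1 sequence. The 5p strands, by contrast, differ from gene to gene.

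miR-29a-5p: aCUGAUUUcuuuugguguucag

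miR-29c-5p: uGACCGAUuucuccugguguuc

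miR-29b-1-5p: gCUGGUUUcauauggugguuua

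miR-29b-2-5p: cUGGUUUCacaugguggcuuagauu

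The 5p strands of the miR-29b genes align over 21 positions, with miR-29b-2-5p starting 1 base later, and differ there by U11C and U19C (positions of miR-29b-1-5p). None of the 4 sequences occurred in another annotated hairpin.

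On mm10 the genes form 2 pairs. Mir29a (ENSMUSG00000065610.1, chr6:31062660-31062747) and Mir29b-1 (ENSMUSG00000065604.1, chr6:31063023-31063093) lie 275 nt apart on the minus strand of chromosome 6. The first 2 nt of Mir29b-1, at its 5′ end, overlap an exon of the long non-coding gene Gm27019. Mir29b-2 (ENSMUSG00000065412.2, chr1:195037040-195037120) and Mir29c (ENSMUSG00000065548.1, chr1:195037547-195037634) lie 426 nt apart on the plus strand of chromosome 1, inside an exon of the non-coding gene A330023F24Rik. On the opposite strand an annotated exon of Cd46, which encodes a complement regulator, covers both. The counts used are those on the gene's own strand. On the opposite strand the 4 genes had 0 counts in both libraries, so their counts on either strand were the same.

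The hairpins are shown next with every stretch of 20 nt or more that occurs in another annotated miRNA hairpin in capitals. A read that lies wholly inside 1 such stretch matches more than 1 place. In Mir29b-1 the capitals join a stretch shared with Mir29c and an overlapping one shared with Mir29b-2, and a read that reaches beyond both ends of their overlap occurs in neither. Of the 49 windows of 23 nt in Mir29b-1, 3 occur in another annotated hairpin. The deposited tables total multi-mapping reads apart from the genes, so that such a read enters no gene count.

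Mir29a: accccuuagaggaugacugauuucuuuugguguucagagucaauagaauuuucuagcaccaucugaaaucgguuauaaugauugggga

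Mir29c: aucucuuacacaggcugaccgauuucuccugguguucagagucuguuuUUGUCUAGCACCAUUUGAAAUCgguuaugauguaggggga

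Mir29b-1: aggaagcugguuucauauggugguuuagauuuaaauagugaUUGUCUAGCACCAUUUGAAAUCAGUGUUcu

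Mir29b-2: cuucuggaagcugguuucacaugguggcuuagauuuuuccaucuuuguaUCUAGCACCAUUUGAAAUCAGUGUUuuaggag

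Compared with 2202 annotated hairpins on either strand, Mir29a shared no stretch longer than 14 nt. Mir29b-1 and Mir29b-2 shared 25 nt with each other, which covers all 23 bases of their 3p strand. Mir29c shared 22 nt with Mir29b-1. That stretch covers 17 of the 22 bases of miR-29c-3p, and its last bases are its own, so that the whole of miR-29c-3p occurs in no other annotated hairpin. It comes within 1 mismatch of Mir29a, and miR-29a-3p within 1 mismatch of Mir29c, and the mismatches that the authors' alignment allowed are not known here. Of all 22-nt windows, 67 of 67 were particular to the gene in Mir29a and 66 of 67 in Mir29c, against 45 of 50 in Mir29b-1 and 56 of 60 in Mir29b-2. The complete genome outside annotated hairpins was not searched.

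**Figure D1:**
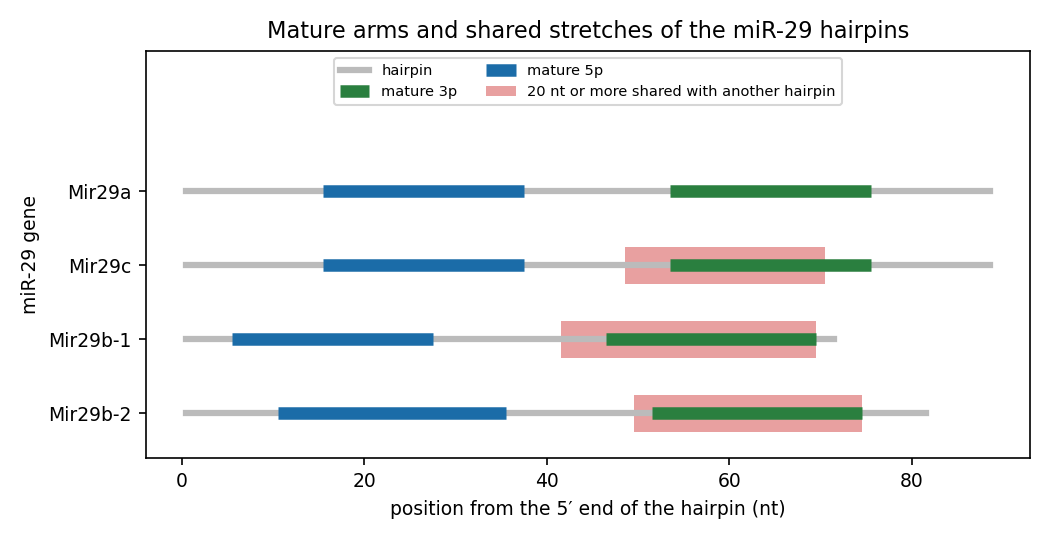
Each row is 1 miR-29 hairpin drawn to scale from its 5′ end (nt), with the mature 5p strand in blue, the mature 3p strand in green and stretches of 20 nt or more shared with another annotated hairpin in pink. The pink stretch covers the whole 3p strand of Mir29b-1 and Mir29b-2, 17 of 22 bases of that of Mir29c, and none of Mir29a.

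Depth was similar in both libraries. They held 18598385 and 20638071 reads in replicates 1 and 2, of which 7080317 and 7946585 were sense counts of miRNA genes. Reads that mapped to several places came to 42.7% ± 0.822 of each library (SD, n = 2). Levels are given as CPM, counts per 1000000 miRNA gene counts of the library. One count was worth 0.141 and 0.126 CPM. The tissue label was checked against miRNA markers: 9 of the 10 neural genes in the tables had 10 or more counts in both libraries, beside 399 of all 1973 genes. The neural list was led by Mir137 at 7614 ± 481 CPM. Lower in it were, among others, Mir9-3 at 595 CPM, Mir9-2 at 5.00 CPM and the Mir124a loci at 0.464 to 2.21 CPM. Every annotated mature strand of Mir9-2 and Mir9-3 occurs in another annotated hairpin, and the Mir124a loci are copies of 1 mature miRNA. The levels of miR-9 and miR-124 can therefore not be read from these gene counts. The endothelial Mir126a, at 22234 CPM, stood above Mir137. Among 10 genes known from striated muscle, of which 9 were in the tables, 3 passed, led by Mir206 at 16.4 ± 3.97 CPM, and 3 were at 0. Those at 0, Mir1a-1, Mir133a-1 and Mir133a-2, are known copies of a mature miRNA with more than 1 locus, so their zeros do not bear on the tissue label. The liver gene Mir122 stood at 10.3 ± 0.0829 CPM.

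The family was a minor part of the forebrain miRNAs counted here. It had 1907 counts in replicate 1 and 1992 in replicate 2, or 269 and 251 CPM (95% Wilson intervals 258 to 282 and 240 to 262). That is 260 ± 13.2 CPM (SD, n = 2), or 0.0260% ± 0.00132 of all miRNA gene counts. Nearly all of it came from the genes whose 3p strand is their own. Mir29a and Mir29c together held 98.9% ± 0.359 of the family's counts, and both miR-29b genes together 1.06% ± 0.359. The miR-29b share excludes whatever miR-29b-3p reads lie in the multi-mapping total, so the level of miR-29b in this tissue cannot be read from it.

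Mir29a was the highest member. It had 1178 counts in replicate 1 and 1313 in replicate 2, or 166 and 165 CPM (95% Wilson intervals 157 to 176 and 157 to 174), with a mean of 166 ± 0.812 CPM (SD, n = 2). The libraries overlapped in their counting intervals. It held 63.8% ± 2.93 of the family and ranked 162 of 1973 genes by mean CPM.

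Mir29c was second, with 704 and 663 counts, or 99.4 CPM in replicate 1 and 83.4 CPM in replicate 2 (intervals 92.4 to 107 and 77.3 to 90.0). Its mean was 91.4 ± 11.3 CPM (SD, n = 2), 35.1% ± 2.57 of the family, at rank 197. The lower value was that of replicate 2, and the counting intervals did not overlap.

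Mir29b-1 had 16 and 12 counts, or 2.26 and 1.51 CPM (intervals 1.39 to 3.67 and 0.864 to 2.64). Mir29b-2 had 9 and 4 counts, or 1.27 and 0.503 CPM (intervals 0.669 to 2.42 and 0.196 to 1.29). Their means were 1.88 ± 0.530 CPM at rank 385 and 0.887 ± 0.543 CPM at rank 453 (SD, n = 2 each). Of the 4 genes, Mir29b-2 alone missed the minimum of 10 counts in both libraries that defines a detected gene here. That minimum was met by 399 genes of the series, with a median of 81.0 CPM. Mir29a stood above the middle of these detected genes, with 59.4% of them lower, and Mir29c close to it, with 50.6% lower. Mir29b-1 stood far below it. The intervals cover counting error only.

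**Figure D2:**
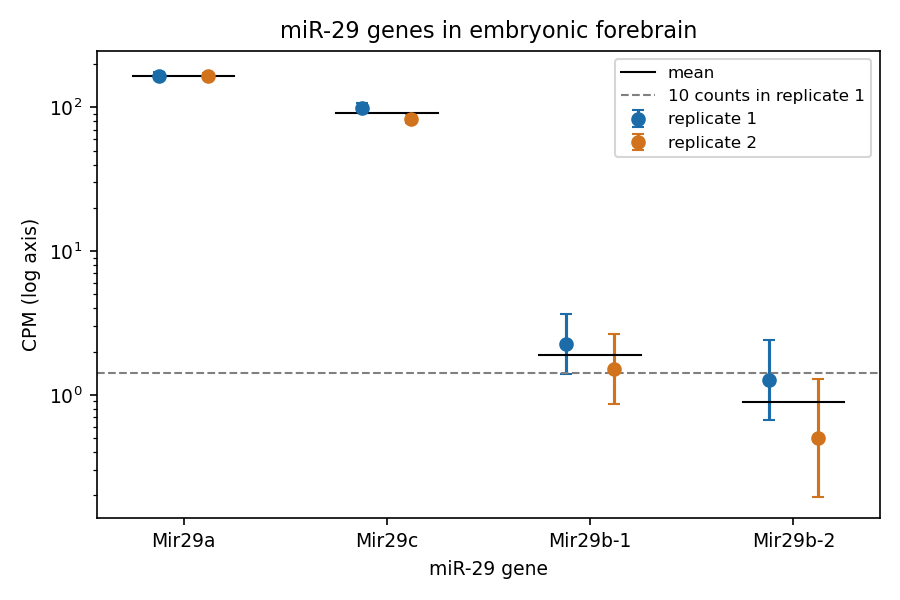
Points give the CPM of each miR-29 gene (log axis) in replicates 1 and 2, with 95% Wilson intervals as error bars, and black lines give the mean of the 2 libraries. Mir29a at 166 CPM and Mir29c at 91.4 CPM lie far above Mir29b-1 at 1.88 and Mir29b-2 at 0.887 CPM, which are near the dashed line of 10 counts.

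The order Mir29a, Mir29c, Mir29b-1, Mir29b-2 was the same in both libraries. Mir29a had 1.67 counts per count of Mir29c in replicate 1 and 1.98 in replicate 2 (exact 95% intervals 1.52 to 1.84 and 1.80 to 2.18). On the log2(CPM + 1) scale they differed by 0.86 ± 0.17 (SD, n = 2), more than the sum of their SDs, 0.18. Mir29c exceeded Mir29b-1, the next in order, 44.0-fold and 55.3-fold in counts, and the log2 difference of 5.01 ± 0.09 lay far beyond the spread. Mir29b-1 and Mir29b-2 did not differ beyond their spread, with a log2 difference of 0.63 ± 0.15 against summed SDs of 0.69. The intervals of their count ratio include 1 in both libraries (0.740 to 4.56 and 0.909 to 12.8). The members were counted in the same 2 libraries, a pairing that the SDs of the differences take in and the summed SDs do not. An exact two-sided permutation test of 2 unpaired values against 2 cannot go below p = 0.33. A paired one has fewer arrangements still, so neither was made. Per 100 nt of hairpin the order was the same, at 188 ± 0.923 CPM for Mir29a, 104 ± 12.9 for Mir29c, 2.65 ± 0.747 for Mir29b-1 and 1.10 ± 0.670 for Mir29b-2.

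Counts differed more within a genomic pair than between the pairs. On chromosome 6, Mir29a had 73.6 and 109 counts per count of its neighbour Mir29b-1. On chromosome 1, Mir29c had 78.2 and 166 counts per count of its neighbour Mir29b-2. In both pairs the lower gene is a miR-29b gene, whose whole 3p strand lies in a shared stretch. Reads wholly inside that stretch enter no gene count, so the output of neighbouring hairpins cannot be read from these gaps. Summed, the chromosome 6 pair held 64.6% ± 2.76 of the family's counts and the chromosome 1 pair 35.4% ± 2.76 (SD, n = 2).

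**Figure D3:**
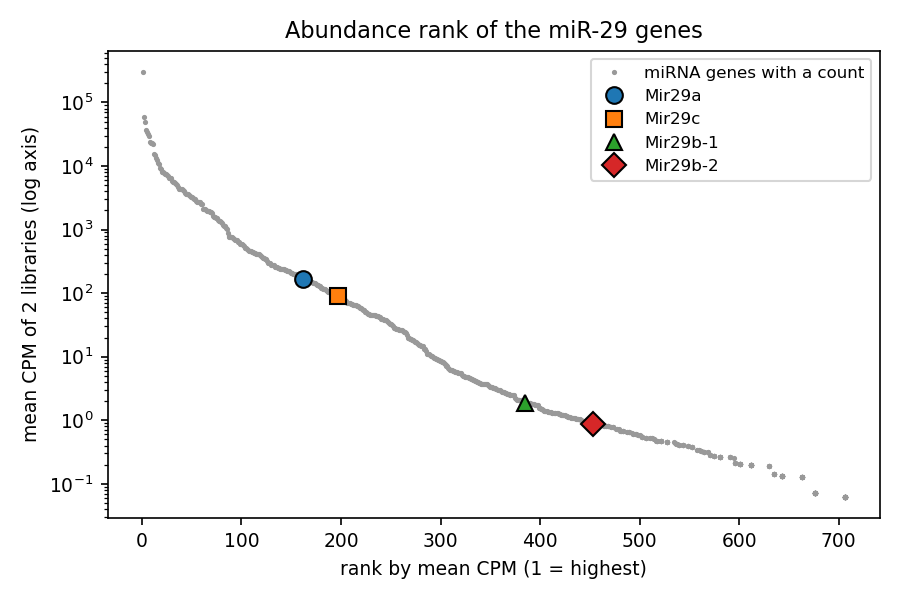
Each grey point is 1 miRNA gene with at least 1 count, placed by its rank (1 is the highest) and its mean CPM over both libraries (log axis), and coloured symbols mark the miR-29 genes. Mir29a and Mir29c sit at ranks 162 and 197, and Mir29b-1 and Mir29b-2 at ranks 385 and 453.

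The libraries were compared gene by gene, each gene's counts against all other miRNA counts. Mir29a had a ratio of replicate 2 over replicate 1 of 0.993 (exact 95% interval 0.917 to 1.08) and was not called (Fisher's exact test, two-sided, Benjamini-Hochberg adjusted p = 1). Mir29c was lower in replicate 2, at a ratio of 0.839 (interval 0.754 to 0.934, Fisher's exact test, adjusted p = 0.00545). Mir29b-1 at 0.668 (interval 0.289 to 1.51) and Mir29b-2 at 0.396 (interval 0.0891 to 1.42) were not called (Fisher's exact test, adjusted p = 0.646 and p = 0.396), and at so few counts their intervals reach from a lower to a higher value. So 1 of the 4 members was called. The background was 26.3% of the 737 genes with a count, with 69 genes (9.36%) higher in replicate 2 and 125 (17%) higher in replicate 1. Among the 399 detected genes 46.9% were called, 16.5% as higher in replicate 2 and 30.3% as higher in replicate 1. This split depends on the scaling, with 96 and 85 calls under TMM factors and 88 and 99 under median-of-ratios factors. With a ratio of at least 2-fold required as well, 0 of the 4 members and 1.49% of the genes with a count were called. The test takes in no variation between embryos, only that of counting.

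The call of Mir29c rested on the scaling too. With TMM factors its ratio was 0.887 (exact binomial test, adjusted p = 0.0972), with median-of-ratios factors 0.906 (adjusted p = 0.216 in the same exact test), and with totals that leave out Mir99a, the most abundant gene, 0.881 (Fisher's exact test, adjusted p = 0.0755). These scalings moved the median of all detected genes up by 0.08, 0.11 and 0.07 on the log2 scale. A scaling shifts all log2 ratios alike, so the distance of Mir29c below that median, 0.16, stayed the same by construction. Its 1.19-fold difference was close to the median difference of detected genes, 1.17-fold, and 55.1% of them differed less. Mir29a, for which 2.26% of them differed less, had a ratio of 1.05 with TMM factors (exact binomial test, adjusted p = 0.518). The ratio of Mir29a to Mir29c needs no scaling. That it differed between the libraries was tested after the values were seen, by Fisher's exact test over 6 pairs of members, and did not pass after adjustment (p = 0.0127, adjusted p = 0.0764).

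Markers of other cells were compared between the libraries in the same way, with shares given for replicate 1 and then replicate 2. The 7 choroid plexus or ciliated cell genes were all detected and led by Mir449a. Of these, 4 were called, each higher in replicate 1, beside 30.3% of all detected genes. The summed share of all 7 was 0.808% and 0.667%. Both erythroid genes, Mir451a and Mir144, were called higher in replicate 2, beside 16.5% of detected genes, with sums of 0.0400% and 0.0537%. The smooth muscle or stromal list, with 5 of 6 genes detected, had 0.369% and 0.411%, and its leading gene Mir143 was the only one called. The endothelial Mir126a held 2.21% and 2.24%. Mir126a and Mir143 were each called higher in replicate 2, beside 16.5% of detected genes. Of the immune list, led by Mir223, 3 of 4 genes were detected, with 0.0186% and 0.0191%. In this list 0 were called, beside 46.9% of detected genes in either direction. The part of these cells in the value of Mir29c was not tested, and in whole tissue fewer cells of a type and less RNA per cell cannot be told apart.

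**Figure D4:**
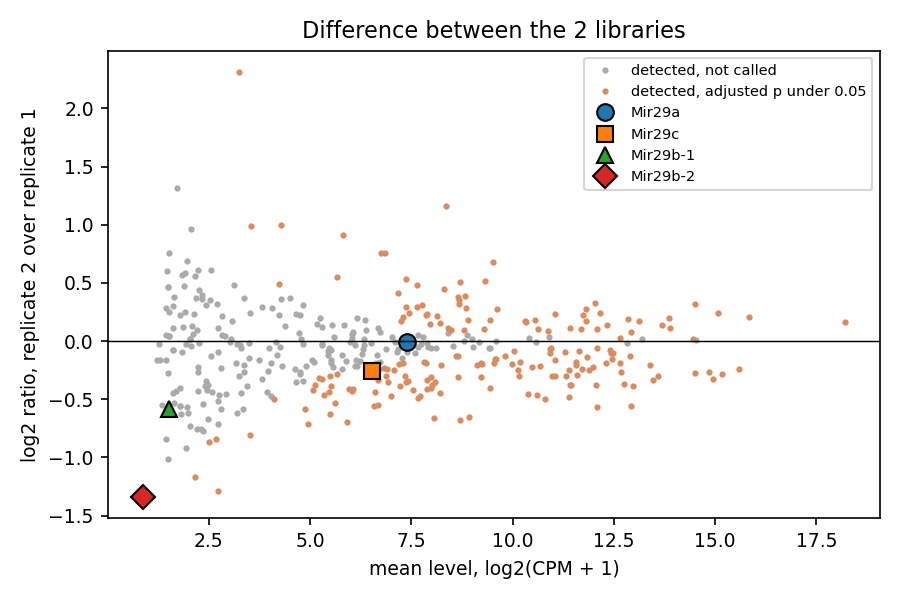
Each point is 1 detected miRNA gene, placed by its mean level, log2(CPM + 1), and its log2 ratio of replicate 2 over replicate 1, with genes at an adjusted p under 0.05 in orange and the miR-29 genes as larger symbols. Mir29a lies at -0.01 and Mir29c at -0.25, within the cloud of genes of similar level, and Mir29b-2 at -1.34, with 9 and 4 counts, is shown although it was not detected.

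The genes nearest to each member in level over both libraries were taken by Euclidean distance on log2(CPM + 1). For Mir29a they were Mir181a-2 at 167 ± 7.32 CPM, Mir760 at 159 ± 2.73 CPM and Mir3074-1 at 157 ± 14.7 CPM, at distances of 0.06 to 0.17. For Mir29c they were Mir345 at 97.3 ± 8.87 CPM, Mir505 at 89.0 ± 0.763 CPM and Mir679 at 97.6 ± 20.9 CPM. The neighbours of Mir29b-1 were Mir6935, Mir344e and Mir344g, at 1.76 to 2.08 CPM. Those of Mir29b-2 were Mir6965 and Mir6984, with the same 9 and 4 counts, and Mir3095. A likeness over 2 libraries is one of level only.

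Mir29b-1 and Mir29b-2 belong to 54 genes in the tables that have 1 mature strand in another annotated hairpin and 1 of their own. Mature sequences were at hand for 858 of the 1973 genes (43.5%), or 340 of the 399 detected ones (85.2%). The 54 are therefore not all genes of this kind, and the kind was not tested against the rest. By mean CPM the miR-29b genes took places 37 and 40 among the 54, whose median was 28.9 CPM. Of the 54, 37 were detected (68.5%), and 17 stood above Mir29a. The highest, named after their values were seen, were Mir181a-1 at 8859 CPM and Mir16-1 at 6426 CPM. Of 42 genes with every mature strand in another hairpin, 9 were detected (21.4%), beside 294 of the 762 with none (38.6%). The share of the 54, 68.5%, was higher than both, a description with no test. Like Mir29b-1, Mir19b-2 (18 and 14 counts) stood near the count minimum, and Mir194-1 (6 and 4 counts) was below it like Mir29b-2, both also named after their values were seen. Which arm the counted reads came from is not given by gene counts.

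**Figure D5:**
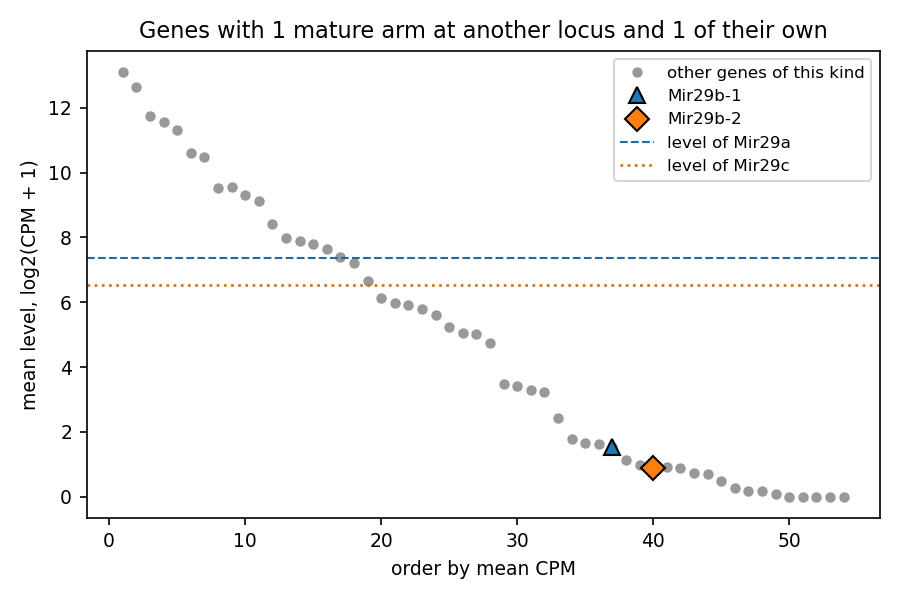
Grey points are the genes with 1 mature strand in another annotated hairpin and 1 of their own, ordered by mean CPM, with their mean level, log2(CPM + 1), on the y axis. Mir29b-1 and Mir29b-2 are at places 37 and 40 of 54, and the lines give the levels of Mir29a (7.38) and Mir29c (6.52).

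Among other miRNAs known, in human or mouse cells, to act on enzymes of DNA methylation or of the removal of methyl groups, 9 of 9 genes were detected. Their median of 255 CPM stood above Mir29a at 166 CPM, and 5 of the 9 exceeded it, beside 161 of all 399 detected genes. The highest was Mir26b, known to act on Tet enzymes, at 13126 ± 908 CPM (SD, n = 2 here and below). Mir22, which also acts on Tet enzymes, had 2751 ± 502 CPM. Mir101b and Mir101a, best known for repressing Ezh2 and reported to act on Dnmt3a, had 1261 ± 107 and 341 ± 11.9 CPM. Mir148b, Mir148a and Mir152, whose family acts on Dnmt1, had 255 ± 50.3, 117 ± 17.2 and 17.1 ± 1.02 CPM. Mir26a-2 at 37.1 ± 3.56 CPM and Mir26a-1 at 8.44 ± 1.25 CPM were lower, and like the miR-29b genes they are copies with a mature strand in common. Between the libraries 2 of the 9 were called higher in replicate 2 and 3 higher in replicate 1 (Mir148a, Mir148b and Mir22), beside 16.5% and 30.3% of the detected genes. Their median log2 ratio was -0.12, beside -0.09 over all detected genes.

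Of 15 genes of miRNAs that accumulate in maturing neurons, 14 were detected, and 8 exceeded Mir29a, the same number as exceeded Mir29c. Of all 1973 genes, 399 were detected, 161 of them above Mir29a and 196 above Mir29c. Mir137, Mir153, Mir128-1, Mir128-2, Mir138-1, Mir132, Mir138-2 and Mir129-2 stood above Mir29a, from 7614 ± 481 CPM for Mir137 to 237 ± 1.64 CPM for Mir129-2. Mir29a at 166 ± 0.812 CPM stood above Mir129-1 at 64.7 ± 0.752 CPM, Mir218-2 at 26.02 ± 3.35 CPM, Mir212 at 19.98 ± 1.29 CPM and Mir218-1 at 10.2 ± 0.738 CPM. Of these, Mir129-1 has every annotated mature strand in another annotated hairpin, and Mir218-1 and Mir218-2 have some. Reads that fit several loci enter no gene count, so the values do not show that miR-29a exceeded miR-129 or miR-218. The miR-29b genes, with 1.88 and 0.887 CPM, were in the range of the 3 Mir124a loci, which had 0.464 to 2.21 CPM and are likewise copies of 1 mature miRNA. Of the list, 3 genes were called higher in replicate 2 (Mir132, Mir128-1 and Mir128-2) and 3 higher in replicate 1 (Mir138-1, Mir137 and Mir153). That is 6 of the 14 detected genes of the list, beside 46.9% of all detected genes. The median log2 ratio of the 14 detected genes of this list was -0.04, beside -0.09 over all detected genes.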

How the data were processed

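Small RNA was measured in 2 forebrain libraries of 1 group. The authors deposited a table of raw read counts for either library, with a row for each miRNA gene. The accompanying README files name mm10 and GENCODE M4 and a single alignment file behind each table. No aligner or counter is named in the sources used here. A table has unstranded, sense (used here) and antisense counts, and 4 totals that name no gene: multi-mapping reads at 42.7% ± 0.822 of all reads (SD, n = 2), unmapped reads at 16.8% ± 0.325, reads in no gene at 2.21% ± 0.189 and ambiguous reads at 0%. These stayed out of library sizes and tests. Reads that fit several loci are missing from gene counts, which can lower genes with a copied mature strand. Levels of different genes are read counts and not molar amounts.

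Of 1973 gene IDs, 1894 were named, without their version, from GENCODE M21 (GRCm38, the assembly of mm10). The versions of Mir29b-1 and Mir29b-2 differ between the annotations, so their bounds at counting may differ from those given. Sequences are from RefSeq (GRCm38.p6) and hairpins for the search from GENCODE M21.

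CPM is the count over all miRNA gene counts of the library times 1000000. Levels are log2(CPM + 1), and errors are SDs over 2 libraries. Intervals are 95% Wilson for shares and exact for ratios. Both reflect counting alone. PCR copies cannot be told from separate molecules, so the intervals may be too narrow even for the sampling of molecules. A floor of 3 counts was 0.424 and 0.378 CPM. Fisher's exact test ran over the 737 genes with a count, with Benjamini-Hochberg adjustment and a threshold of 0.05. The test was also run on simulated counts with counting error alone, which do not cover the larger difference between these libraries. An exact binomial test with effective library sizes replaced it for TMM (edgeR 4.0.16) and median-of-ratios factors. Other steps used Python 3.11.15 with SciPy 1.17.1. A chi-square of 90915 on 413 degrees of freedom showed that the libraries differ beyond sampling noise.

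The members were taken by their family name, and the family, the lists and the tests were chosen with earlier results of these data known. The named genes are the 4 members, the 3 genes nearest each in level, the genes of both lists and the leading gene of each marker list. The remaining names, Mir99a among them, were picked with their values in view.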

Additional observations from a re-analysis of the deposited data

How the results depend on the processing

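Of 104 recomputed values, 75 stayed the same by the rule for their kind. For ratios between the libraries the rule was an unchanged direction and side of the threshold, whatever the size. For levels and log2 differences it was a change smaller than the SD. For counts of genes it was a fixed fold limit or no change. The ratio of Mir29c between the libraries kept its direction throughout and lost its call with TMM factors (0.887), median-of-ratios factors (0.906) and totals without Mir99a (0.881). Its call held with all reads as total, counts on either strand, only detected genes tested and adjustment over all genes of the tables, the last chosen after seeing the data (adjusted p = 0.00298 to 0.0146, Fisher's exact test). The ratio of Mir29a, 0.993, lay on the other side of 1 with TMM factors (1.05), median-of-ratios factors (1.07), totals without Mir99a (1.04) and all reads as total (1.004), and was not called in any of them (adjusted p = 0.250 to 1, exact binomial and Fisher's exact tests). The 11 calls of at least 2-fold became 5 with detected genes only and 7 with adjustment over all genes, since fewer low genes or more tests enter. No member was among them. The family's 260 CPM became 372 with totals without Mir99a and 99.5 per 1000000 reads of any kind, as the larger or smaller total implies, and lay between 251 and 269 in single libraries. With a pseudocount of 0.5 in place of 1, the log2 differences were 6.14 for Mir29a over Mir29b-1, 6.96 for Mir29a over Mir29b-2, 5.28 for Mir29c over Mir29b-1, 6.10 for Mir29c over Mir29b-2 and 0.82 for Mir29b-1 over Mir29b-2. With a pseudocount of 5 they were 4.63, 4.86, 3.81, 4.03 and 0.23 in the same order, since a pseudocount weighs most on low counts. At 4 to 16 counts per library, the miR-29b genes had wide counting intervals.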
